A study of Homo sapiens with 12 samples.

Results

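The regions described here are wide stretches of the histone mark H3K4me1 in HepG2 cells on which neither H3K27ac nor H3K4me3 was called. They were chosen by measured values: a member is a called H3K4me1 region on chromosomes 1 to 22 or X, at least 2000 bp wide, that shares no base with any called H3K27ac or H3K4me3 region. The rule found 4230 members among 182592 H3K4me1 regions (2.32%). The 4230 members made up 18.9% of the 22378 H3K4me1 regions of 2000 bp or more (95% Wilson interval 18.4 to 19.4), and they covered 11.6 Mb, or 5.92% of all H3K4me1 bases. The Wilson intervals given here reflect counting error alone and ignore that neighbouring regions may be alike.

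HepG2 is an established line derived from a human liver tumour, and the cells carried no treatment per the labels. Each mark was mapped by ChIP-seq, in which an antibody pulls down the DNA wrapped around a modified histone and that DNA is sequenced, with 3 libraries each for H3K27ac, H3K4me1 and H3K4me3. The titles of 3 more libraries call them input, but the antibody listed for them is an anti-mouse IgG, which leaves unclear what they controlled for. The values are 1 pooled list of called regions per mark, so each value below is a single measurement. No spread between cultures can be given, no difference was tested against it, and the depth of the libraries is unknown.

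As background, H3K4me1 is laid down mainly by the methyltransferases KMT2C and KMT2D, and it marks enhancers and the flanks of promoters. H3K27ac is added by the acetyltransferases EP300 and CREBBP and accompanies enhancers and promoters that are active, and H3K4me3 sits at the starts of active or poised genes. Distal sites that hold H3K4me1 without H3K27ac are commonly called primed enhancers, and sites that also carry the repressive mark H3K27me3 are called poised. H3K27me3, DNA accessibility and transcription were not measured here, so the members are called by their rule: wide H3K4me1 regions with neither other mark. A gene annotation or genome sequence of the files' build was not used, so positions are given in hg19, counted from 1, without genes or sequences. The liver identity of the cells was likewise not checked against marker genes.

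The widest members were long, almost unbroken stretches. The widest lay on chromosome 20 from 61055914 to 61066240 and measured 10327 bp, with a signal value of 9.79 and a −log10 p-value of 116.6. The signal value is the peak caller's own strength for a region, in the authors' unit. It refers to H3K4me1 unless another mark is named, and values are compared only within the list of 1 mark. Its nearest H3K4me3 region began 4380 bp away and its nearest H3K27ac region 7276 bp away, and the nearest H3K4me1 region on its left was 53 bp away. The next widest member, on chromosome 17 from 44941969 to 44951693, measured 9725 bp, with a signal value of 7.74, and had H3K27ac at 19219 bp and H3K4me3 at 12133 bp.

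On chromosome 6, the member from 43815162 to 43824633 measured 9472 bp and had a signal value of 11.2. Its nearest H3K27ac region was 39364 bp away and its nearest H3K4me3 region 40339 bp away, although 24 other H3K4me1 regions lay within 50 kb. The member on chromosome 14 from 101697897 to 101707343 (9447 bp, signal value 8.65) had a weak, narrow H3K27ac region of 446 bp at 4892 bp, and its nearest H3K4me3 was 47830 bp away. The member on chromosome 21 from 44759877 to 44769182 was 9306 bp wide, had the highest signal value of the 8 widest, 12.1, and lay 5874 bp from H3K27ac and 33555 bp from H3K4me3. These last 3 members were therefore far from H3K4me3 while differing in their distance to acetylation.

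The other 3 of the 8 widest lay nearer to H3K4me3. On chromosome 13, the member from 114053299 to 114061892 (8594 bp, signal value 6.47) lay 1967 bp from H3K27ac and 2245 bp from H3K4me3. On chromosome 11, the member from 125969753 to 125977740 was 7988 bp wide but had a signal value of only 4.65, and 14 H3K27ac regions lay within 50 kb of it. The other chromosome 11 member, from 71254245 to 71261649 (7405 bp, signal value 7.04), had its nearest H3K27ac region at 6713 bp and its nearest H3K4me3 region at 7524 bp.

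**Figure D1:**
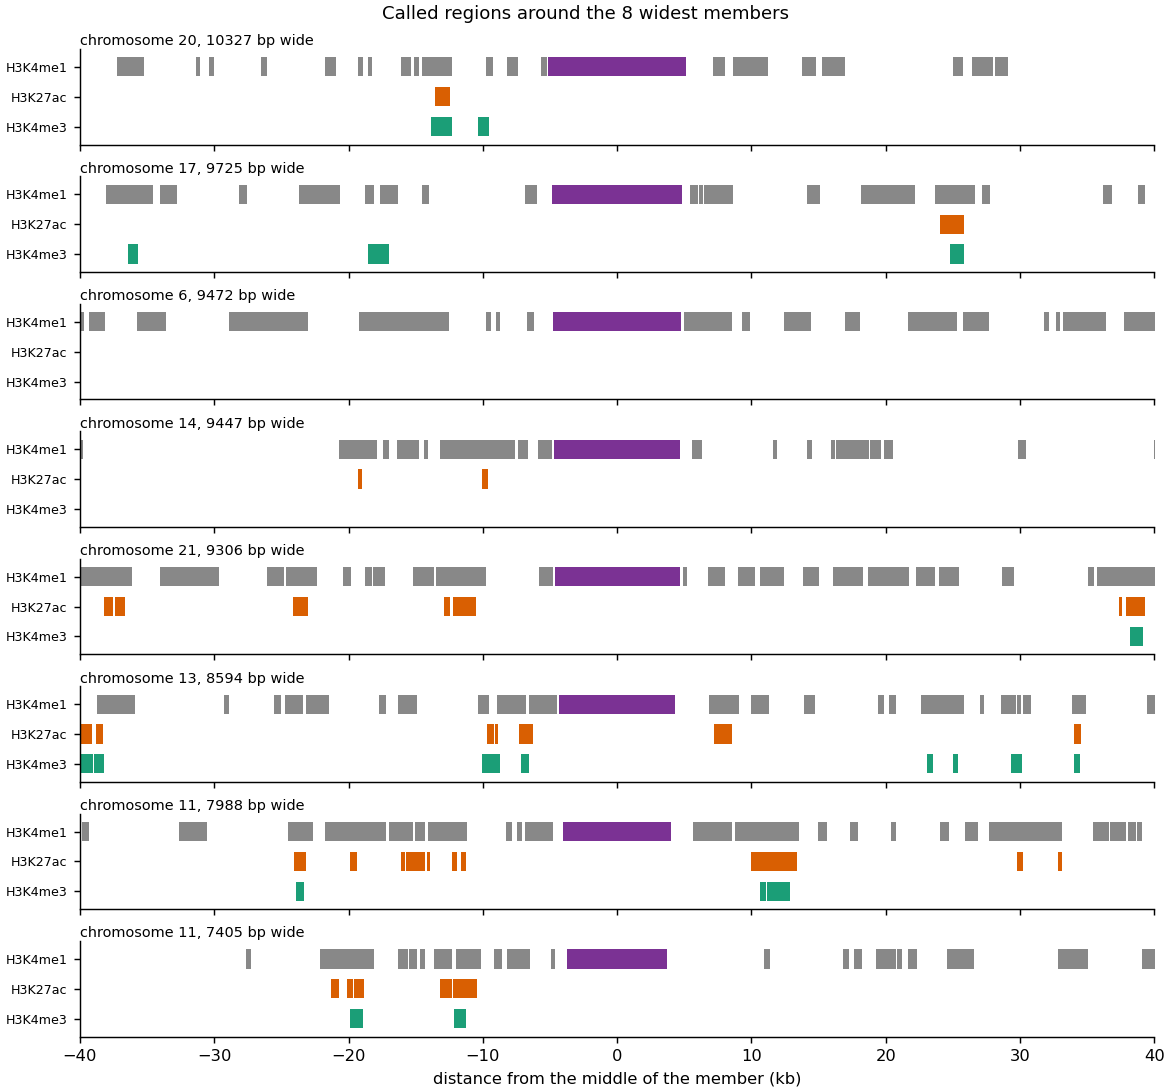
Called regions of the 3 marks within 40 kb of the middle of each of the 8 widest members, 1 panel a member. The horizontal axis is the distance from the member's middle in kb, each bar is 1 called region drawn to scale, and the member itself is purple. H3K4me1 regions surround every member shown, whereas the lanes of H3K27ac and H3K4me3 are empty across the chromosome 6 member of 9472 bp and hold only 2 H3K27ac regions beside the chromosome 14 member.

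Most members were much narrower than these. The median width was 2479 bp (interquartile range 2190 to 3036), 5% exceeded 4310 bp, and 2181 of the 4230 lay between 2000 and under 2500 bp. Only 104 were 5000 bp or wider. Among all H3K4me1 regions, the share with neither other mark fell from 82.6% of those under 500 bp to 27.5% of those from 2000 to under 2500 bp and to 4.00% of those of 5000 bp or more. A wider region has more room to share a base with another mark, and how much of this fall that accounts for was not tested.

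The width minimum cut through a continuous distribution. Exactly 2000 bp was the width of 8 members, 3 of which had signal values of 5.41 on chromosome 14 (69736428 to 69738427), 4.08 on chromosome 15 (67444543 to 67446542) and 4.78 on chromosome 2 (27520960 to 27522959). Just outside it, regions of 1999 bp with neither mark had signal values of 7.77 on chromosome 1 (157167608 to 157169606), 5.36 on chromosome 12 (123581724 to 123583722) and 5.58 on chromosome 17 (42405024 to 42407022). There were 572 members under 2100 bp and 697 regions from 1900 to under 2000 bp with neither mark.

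**Figure D2:**
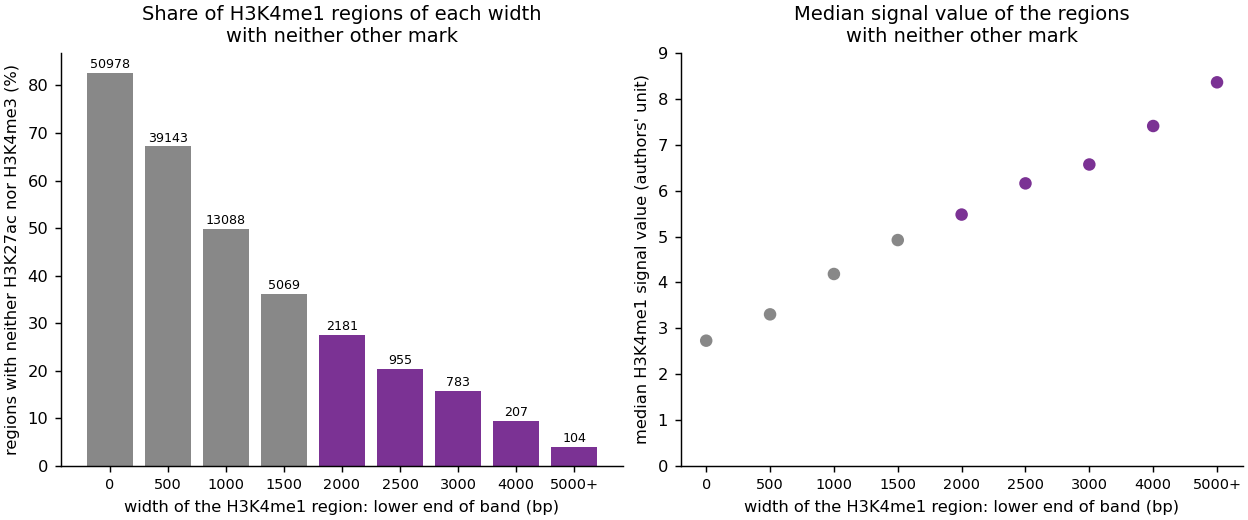
H3K4me1 regions by width, with the lower end of each width band in bp on the horizontal axis and members in purple. The left panel gives the share of each band with neither other mark, with the number of such regions above each bar, and the right panel gives their median signal value in the authors' unit. The share falls from 82.6% to 4.00% across the bands while the median signal value rises from 2.73 to 8.37.

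The H3K4me1 signal of the members was well above that of the narrower regions with neither mark. It was a little below that of regions with H3K27ac and no H3K4me3 in the same band of width. Of the wide regions with H3K4me3, 88.9% also shared a base with H3K27ac, and against these the direction differed by band. The members' median signal value was 5.94 (interquartile range 4.89 to 7.26), against 3.07 (2.61 to 3.76) in the 108278 narrower regions with neither mark. Signal value and width go together in this list, and the rule set members apart from the narrower regions by width. Among regions with neither mark, the median was 4.92 from 1500 to under 2000 bp and 5.48 from 2000 to under 2500 bp. The gap to the narrower regions is thus tied to the width minimum. The wide sets were compared within bands of width. From 2000 to under 2500 bp, the median was 5.48 in members, 5.82 in regions with H3K27ac and no H3K4me3, and 5.48 in regions with H3K4me3. From 2500 to under 3000 bp the 3 medians were 6.16, 6.30 and 6.002, and at 3000 bp or more they were 6.91, 7.48 and 7.38. The last band has no upper end, and its regions were not of like width, with median widths of 3550.5, 3930 and 4222.5 bp in the same order. The averages over bands given below include it, without a further adjustment for width.

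These differences in signal value were small beside the spread among regions. The interquartile range of the members of 2000 to under 2500 bp was 4.59 to 6.61. It overlapped most of that of the regions with H3K27ac and no H3K4me3, 4.81 to 7.04. Averaged over the width bands within a chromosome, members lay below acetylated regions without H3K4me3 by a mean difference of -0.36 in signal value (SD 0.24 over 23 chromosomes), in the same direction on 22 of 23. Against regions with H3K4me3 the mean difference was -0.10 (SD 0.23), negative on 15 of 23. Chromosomes are not replicate cultures, and these counts describe only how even the difference was across the genome.

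The −log10 p-value separated the sets more than the signal value did. From 2000 to under 2500 bp, the median −log10 p-value was 24.3 in members, 31.1 in regions with H3K27ac and no H3K4me3, and 30.5 in regions with H3K4me3, although members and the last set had the same median signal value. To describe this, the log2 of the −log10 p-value was taken relative to a cubic curve on log2 signal value fitted over all H3K4me1 regions. The median of that excess was -0.07 in members, -0.15 in the narrower regions with neither mark, 0.14 in wide regions with H3K27ac and no H3K4me3, and 0.25 in wide regions with H3K4me3. Within chromosomes and width bands, members lay below regions with H3K27ac and no H3K4me3 by a mean of -0.22 (SD 0.05), on 23 of 23 chromosomes. Against regions with H3K4me3 the mean was -0.31 (SD 0.07), also on 23 of 23. Local read depth in the control and in the H3K4me1 libraries was not available for these regions, and its part was not tested.

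**Figure D3:**
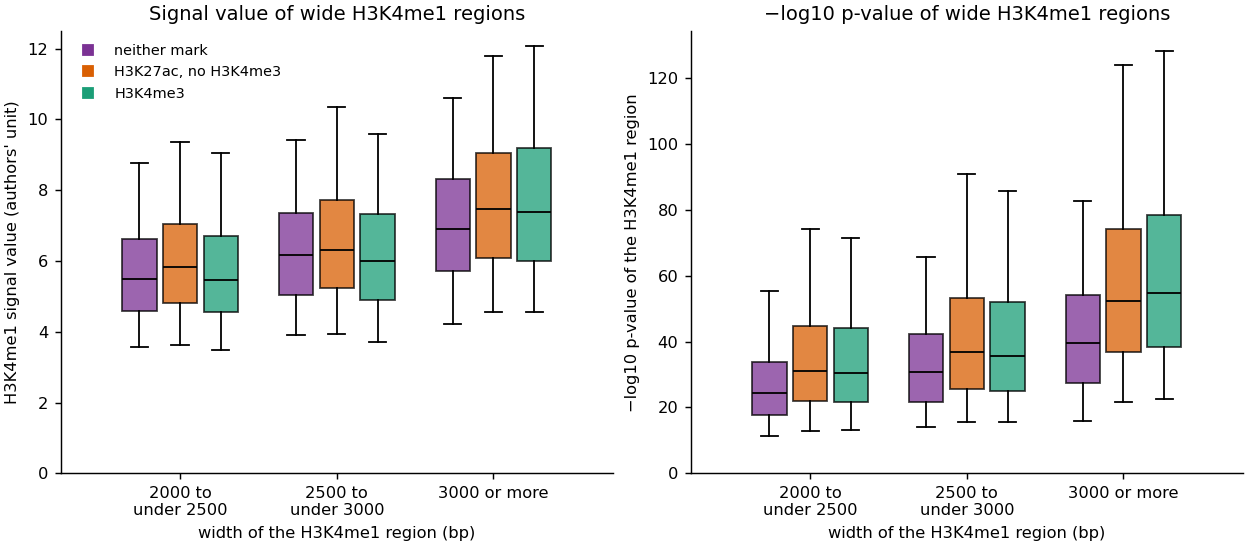
Signal value (left, authors' unit) and −log10 p-value (right) of wide H3K4me1 regions in 3 bands of width on the horizontal axis, for regions with neither other mark (the members, purple), with H3K27ac and no H3K4me3 (orange) and with H3K4me3 (green). Boxes span the interquartile range with the median as a line, and whiskers run from the 5th to the 95th percentile of regions. The boxes of signal value nearly coincide in the narrowest band, with medians of 5.48, 5.82 and 5.48, while the members' median −log10 p-value of 24.3 is below the 31.1 and 30.5 of the others.

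The strongest members were not the widest. The highest signal value, 15.5, belonged to a member of 2947 bp on chromosome 14 from 75439567 to 75442513, which lay 15788 bp from H3K4me3 and 15869 bp from H3K27ac. The next, 15.3, belonged to a member of 4155 bp on chromosome 1 from 2561943 to 2566097, with H3K4me3 at 6553 bp and H3K27ac at 6919 bp. A second chromosome 1 member, from 205632710 to 205636414 (3705 bp), had a signal value of 14.3 and lay 4045 bp from a weak H3K27ac region of 286 bp.

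The remaining 2 of the top 5 differed in their distance to acetylation. The member on chromosome 9 from 136258507 to 136261340 (2834 bp, signal value 13.9) had H3K27ac at 644 bp and H3K4me3 at 665 bp, and 15 H3K27ac regions within 50 kb. On chromosome 14, the member from 24529331 to 24532947 (3617 bp, signal value 13.6) lay 7415 bp from H3K4me3 and 8208 bp from H3K27ac. None of the 5 was among the 8 widest, but both groups are few beside 4230 members, and wider members tended to have higher signal values. Across the 4230 members the Spearman correlation of width with signal value was 0.33, a description over regions that share libraries and are not independent.

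Every member passed a q-value of 0.05, and so did every other wide H3K4me1 region. The lowest −log10 q-value was 2.70 among members, 3.86 in wide regions with H3K27ac and no H3K4me3, and 3.46 in wide regions with H3K4me3. Thus 0 of 4230 members had a q-value above 0.05. In the narrower regions with neither mark the 5th percentile of the −log10 q-value was 2.20, so most of them passed too. The members' median −log10 p-value was 28.7 against 6.89 in the narrower regions with neither mark, a gap that goes with the width minimum. The lowest signal value of a member was 2.12.

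The summit, the position of highest signal that the peak caller gave, lay most often towards the middle of a member and seldom at its ends. It lay in the outer 20% of the width, 10% at each end, in 91 members (2.15%). It lay in the middle 20% of the width in 32.5% of members (Wilson 31.1 to 34.0), compared with 32.4% of wide regions with H3K27ac and no H3K4me3, 27.1% of wide regions with H3K4me3 and 41.9% of the narrower regions with neither mark. The summit was at least 500 bp from both edges in 3595 of 4230 members (85.0%). The median distance from the summit to the nearer edge was 873 bp.

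Close to another mark, more summits lay near the edge facing it than near the far edge. Among the 418 members with H3K27ac or H3K4me3 within 1000 bp, 78 had their summit in the outermost 20% of the width on the side facing the nearest mark, against 32 in the outermost 20% on the far side. The summit lay on the facing side of the middle in 228 of them (54.5%, Wilson 49.8 to 59.3), an interval that includes an even split. At distances above 1 kb and up to 5 kb the counts were 120 facing and 98 far among 1418 members, and above 10 kb and up to 50 kb they were 74 facing and 103 far among 1269. The narrower regions within 1000 bp differed in the same direction, with 781 facing and 505 far among 17200.

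Members lay at all distances from acetylation, with the middle of the distribution at a few kilobases. The rule fixed only that no base was shared, and distances are counted from the member's edge to the first base of the other region. The median distance to the nearest H3K27ac region was 8088 bp (interquartile range 3033 to 22708), and 55.3% of members (Wilson 53.8 to 56.8) had one within 10 kb. The narrower regions with neither mark, chosen by the same overlap rule, had a median of 7902 bp and 55.2% within 10 kb. The 2 sets differed at the ends of the range: 8.01% of members had H3K27ac within 1000 bp against 13.7% of narrower regions, and 4.59% had none within 100 kb against 7.42%.

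By the median, members lay nearer to H3K4me3 than narrower regions did, although fewer of them had it within 1000 bp (4.82% against 6.05%). Their median distance to it was 13722 bp (interquartile range 4863 to 35400), against 17602 bp (5520 to 50140), and 41.8% (Wilson 40.3 to 43.3) had H3K4me3 within 10 kb, against 36.7% (36.5 to 37.0). The difference in median was negative on 20 of 23 chromosomes, with a mean of -4079 bp and an SD of 3609 bp over chromosomes. For H3K27ac the corresponding difference had a mean of 278 bp and an SD of 1139 bp and was negative on 9 of 23, so its direction was not even across the genome. By width band, the median distance to H3K4me3 was 18300 bp in regions under 500 bp. On either side of the width minimum it was 15074 bp (1500 to under 2000 bp) and 15565 bp (2000 to under 2500 bp). It was 12175 bp in regions from 2500 to under 3000 bp and between 11317 and 13020 bp in the wider bands. The median distance to H3K27ac stayed between 7514 and 9571 bp.

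**Figure D4:**
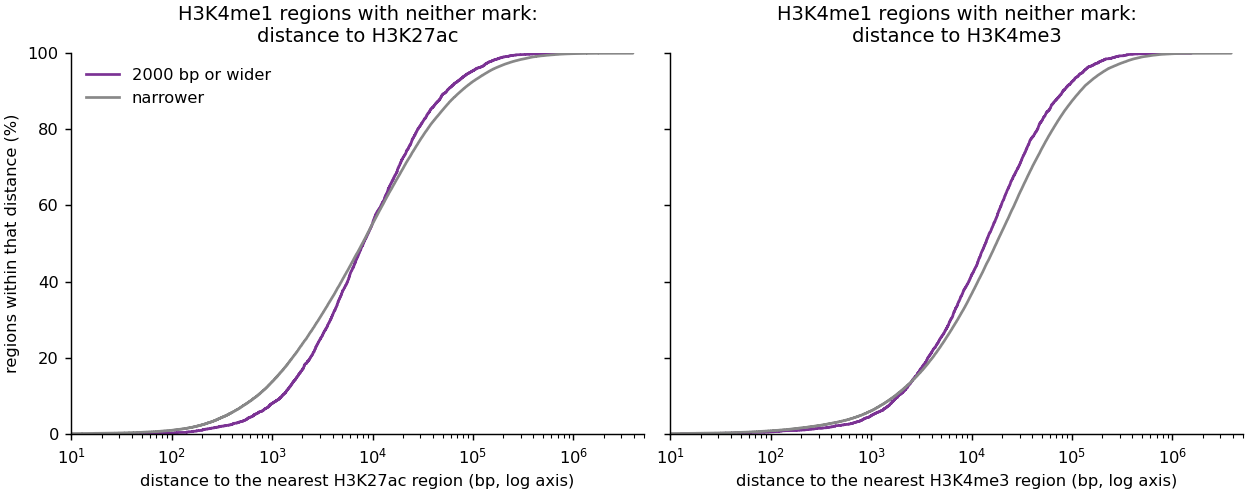
Share of H3K4me1 regions with neither other mark that have H3K27ac (left) or H3K4me3 (right) within a given distance, on a log axis in bp, for members (purple) and narrower regions (grey). The curves for H3K27ac cross near 10 kb, where they stand at 55.3% and 55.2%, and the members' curve for H3K4me3 is higher at 10 kb, at 41.8% against 36.7%.

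The acetylated region nearest to a member was usually one that also carried H3K4 methylation. It overlapped H3K4me1 without H3K4me3 for 2223 members (52.6%), overlapped H3K4me3 for 1930 (45.6%), and overlapped neither for 77 (1.82%). The shares for the narrower regions with neither mark were 53.3%, 42.1% and 4.59%. Shares over all H3K27ac regions are not given here, so whether this split is particular to members was not tested. The nearest H3K27ac region had a median H3K27ac signal value of 3.83 for members and 3.92 for narrower regions. It lay to the left of 2112 members (49.9%). H3K27ac lay within 10 kb on both sides of 674 members (15.9%), on 1 side only of 1664 (39.3%), and on both sides within 5 kb of 285 (6.74%). For the narrower regions these shares were 18.3%, 36.9% and 8.76%.

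The closest members stopped just short of a promoter mark. On chromosome 10, the member from 124713904 to 124716048 (2145 bp, signal value 5.52) lay 13 bp from a strong H3K4me3 region (H3K4me3 signal value 51.8) and 71 bp from H3K27ac. On chromosome 9, the member from 116913655 to 116915723 (2069 bp) also lay 13 bp from H3K4me3, and 93 bp from H3K27ac. On chromosome 1, the member from 52494969 to 52497623 (2655 bp) lay 19 bp from H3K4me3 and 63 bp from H3K27ac. In each of these 3, the nearest H3K27ac region also overlapped H3K4me3, and the rule admits the member because no base is shared.

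The remaining closest members differed in what they adjoined. On chromosome 22, the member from 19716019 to 19718321 (2303 bp, signal value 9.70) lay 17 bp from a weak H3K4me3 region (H3K4me3 signal value 1.73) but 22980 bp from H3K27ac. On chromosome 2, the member from 11881825 to 11884337 (2513 bp) lay 27 bp from H3K4me3 and 109 bp from H3K27ac. In all 5, the summit was within 282 to 395 bp of an edge. Members within 1000 bp of either mark numbered 418, or 9.88%.

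At the other end, 130 members (3.07%, Wilson 2.59 to 3.64) had neither mark within 100 kb. Their median signal value was 5.89 and their median width 2350 bp, beside 5.91 and 2521 bp for members above 1 kb and up to 5 kb and 5.41 and 2417 bp for those within 1000 bp. Beyond the first kilobase the median signal value stayed between 5.89 and 6.17 in every band of distance, and the Spearman correlation of signal value with the distance to the nearest mark was 0.08 over the 4230 members, as a description. What did vary was the surrounding H3K4me1: the median number of other H3K4me1 regions within 50 kb was 23 for members within 5 kb of another mark, 17 above 10 kb and up to 50 kb, and 3 beyond 100 kb.

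The most isolated member, on chromosome 12 from 130527999 to 130530857 (2859 bp), lay 728740 bp from H3K27ac and 729174 bp from H3K4me3. Its signal value was 11.0, above the upper quartile of all members, and 1 other H3K4me1 region lay within 50 kb. On chromosome 8, the member from 139271553 to 139275233 (3681 bp, signal value 6.82) lay 690342 bp from H3K27ac and 1542930 bp from H3K4me3, and the nearest H3K4me1 regions were 1770002 bp to its left and 304203 bp to its right. It had the emptiest surroundings of the 5 most isolated members.

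The other 3 stood between 390216 and 492723 bp from the nearer of the other marks. On chromosome 10, the member from 79092185 to 79094427 (2243 bp, signal value 5.48) lay 492723 bp from H3K27ac. On chromosome 6, the member from 14620610 to 14624269 (3660 bp, signal value 6.79) lay 408394 bp from H3K4me3, and on chromosome 5, the member from 5827019 to 5830047 (3029 bp, signal value 8.77) lay 390216 bp from H3K27ac. All 5 had 0 H3K27ac and 0 H3K4me3 regions within 50 kb, which follows from their choice as the farthest members.

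Most members belonged to longer strings of H3K4me1. Another H3K4me1 region lay within 1000 bp of 63.4% of members (Wilson 61.9 to 64.8), against 54.3% of narrower regions with neither mark, 74.8% of wide regions with H3K27ac and no H3K4me3 and 74.5% of wide regions with H3K4me3. That nearest H3K4me1 region had neither other mark for 78.3% of members and 71.8% of the narrower regions with neither mark, compared with 5011 of 10021 wide regions with H3K27ac and no H3K4me3 and 40.1% for wide regions with H3K4me3. It was itself a member for 7.02% of members and for 2.90% of narrower regions. Counting members that followed each other with no other H3K4me1 region between them, 3714 stood alone, 224 runs held 2, 20 runs held 3 and 2 runs held 4.

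Joining H3K4me1 regions within 1000 bp showed 3 kinds of surroundings. Of the 4230 members, 1549 (36.6%) stayed alone, 1612 (38.1%) fell in a joined block that held neither other mark, and 1069 (25.3%, Wilson 24.0 to 26.6) fell in a block that touched H3K27ac or H3K4me3. Blocks of the last kind had a median width of 8825 bp, against 4633 bp for joined blocks with neither mark. The members themselves were alike in the 3 groups, with median widths of 2427, 2511 and 2494 bp and median signal values of 5.86, 6.04 and 5.94. Their median distance to H3K27ac was 13217, 11884 and 1725 bp. This order is tied to the grouping, since the last group was defined by another mark in its block. A wider block also has more room to touch a mark, and how much of the difference in block width that accounts for was not tested. About 1 member in 4 was therefore part of a stretch of H3K4me1 that also held another mark within the same joined block.

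Fewer H3K27ac regions lay around members than around the other wide regions, which were chosen for holding H3K27ac or H3K4me3. How much of this difference follows from that choice was not tested. The narrower regions with neither mark, under the same overlap rule as members, had slightly fewer than members did. Within 50 kb, not counting regions that overlapped them, members had a median of 5 H3K27ac regions (interquartile range 2 to 9), against 8 for wide regions with H3K27ac and no H3K4me3 (5 to 13), 8 for wide regions with H3K4me3 (5 to 12) and 4 for the narrower regions with neither mark (2 to 8). None lay there for 10.8% of members, compared with 4.08%, 2.73% and 14.9% of these 3 sets. Other H3K4me1 regions within 50 kb had a median of 20 for members, 21 and 22 for the wide sets with H3K27ac and with H3K4me3, and 15 for the narrower regions. The median number of H3K4me3 regions within 50 kb was 2 for members.

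Members were unevenly spread over the genome. Chromosome 17 had the most per length, 38.5 per 10 Mb (313 members), followed by chromosome 20 with 36.2 (228 members), and X had the fewest, 1.22 per 10 Mb (19 members), against 13.9 over all 23 chromosomes. Narrower regions with neither mark were also densest on chromosome 17 (657 per 10 Mb) and sparsest on X (139). As a share of wide H3K4me1 regions, which removes the density of wide regions itself, members ranged from 7.14% on X (Wilson 4.62 to 10.9) to 24.2% on chromosome 20 (21.5 to 26.98), with a mean of 18.3% and an SD of 3.85 over chromosomes. Chromosomes 15 and 10 were close to the highest, at 24.1% each, and chromosome 19 was the lowest autosome, at 13.2% (11.2 to 15.4).

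Ranking members by p-value favoured chromosome 20. Chromosome 20 held 22 of the top 100 members by −log10 p-value, 2 of the top 100 by signal value and 8 of the 100 widest, and it held 228 of all 4230 members. Relative to the curve on signal value described above, the members' median excess (log2) was 0.48 on chromosome 20 and -0.68 on X. Median signal values of members were 5.66 on chromosome 20 and 6.32 on X, beside 5.94 over all members. The order was the same over all H3K4me1 regions, members or not, with medians of 3.30 on chromosome 20 and 3.54 on X. The number of chromosome copies in these cells was not measured here, and its part in the p-values and in the counts per chromosome was not tested.

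**Figure D5:**
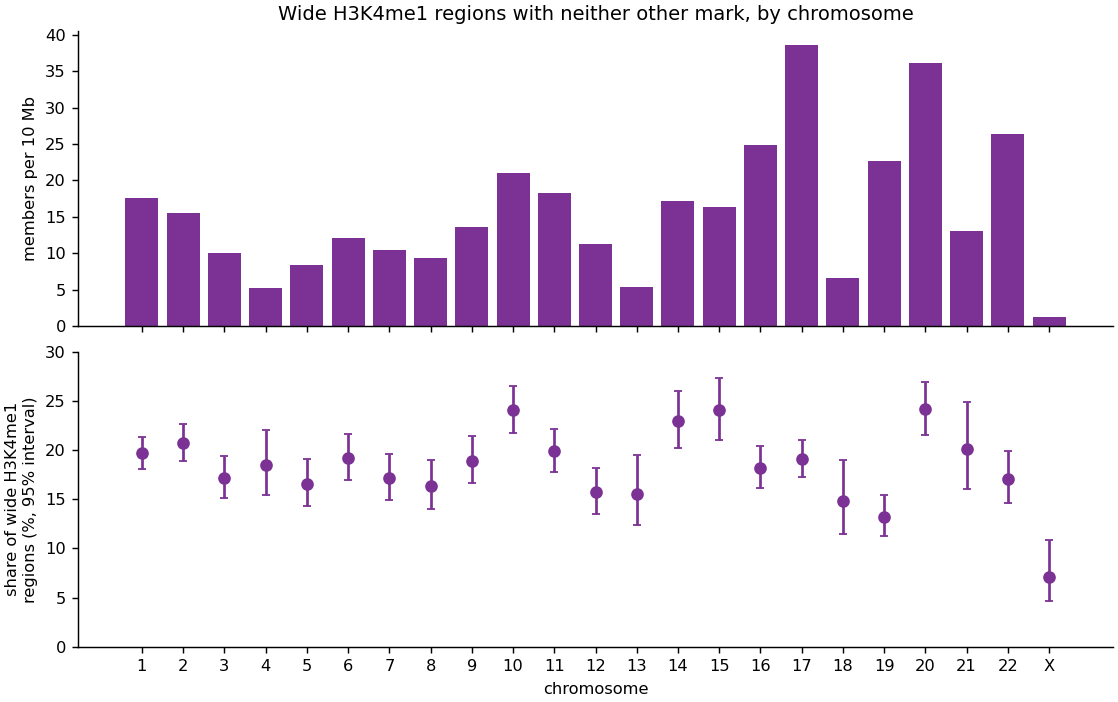
Members by chromosome on the horizontal axis: members per 10 Mb (top, bars from 0) and members as a share of the wide H3K4me1 regions of the chromosome (bottom, points with 95% Wilson intervals). Density is highest on chromosomes 17 and 20, at 38.5 and 36.2 per 10 Mb, and the share is lowest on X, at 7.14%.

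Members were also gathered within chromosomes. Of 3053 windows of 1 Mb, 1240 (40.6%) held a member, and the 306 windows with 5 or more held 2390 members, or 56.5% of all. The same counts were not made for all H3K4me1 regions or for all wide ones, so whether this gathering is particular to members was not tested. The densest window, chromosome 6 from 43000001 to 44000000, held 24 members of 2112 to 9472 bp with signal values of 3.55 to 12.5. They lay among 210 H3K4me1 regions, 61 of them wide, and 74 H3K27ac regions. The 3 widest members of this window were the member of 9472 bp described above, one of 7380 bp from 43706233 to 43713612 that lay 1519 bp from a weak H3K27ac region, and one of 5877 bp from 43790981 to 43796857. Of the 24 members, 15 had H3K27ac within 10 kb, at a median distance of 8149 bp for the window.

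The next windows were similar in number of members but held fewer H3K27ac regions than the chromosome 6 window. Chromosome 20 from 61000001 to 62000000 held 22 members, among 177 H3K4me1 regions, 50 of them wide, and 49 H3K27ac regions. It included the widest member of all, one of 7391 bp from 61992996 to 62000386 (signal value 9.42) and one of 5535 bp from 61001368 to 61006902 (signal value 9.64). Chromosome 10 from 73000001 to 74000000 held 21 members, among 177 H3K4me1 regions, 39 of them wide, and 57 H3K27ac regions. More than 1 in 2 wide regions in this window therefore had neither other mark. Its widest measured 5187 bp, from 73483525 to 73488711, and lay 37450 bp from H3K27ac, and its strongest had a signal value of 11.4. In both windows 10 members had H3K27ac within 10 kb, and the farthest member lay 106095 bp from it on chromosome 20 and 109266 bp on chromosome 10.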

How the data were processed

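Per the labels, sheared DNA (300 ng) from fixed HepG2 cells entered each immunoprecipitation, and reads were paired and of 51 bp. The submitters' processing notes name MACS2 and hg19. The aligner, the threshold and the use of the control libraries are not given in the sources used here. In the lists, the lowest −log10 p-value was 2.001 for H3K27ac, 2.004 for H3K4me1 and 2.03 for H3K4me3. The lowest −log10 q-value was 0.49, 0.84 and 0.20 in the same order, so each list includes regions with a q-value above 0.05. The rule used the listed regions without a further cut on these values. The signal value of each region is the authors', from the deposited lists, with no statement of what it was scaled to. The −log10 p-value and −log10 q-value were deposited beside it. The deposited score was not used. No region ended past an hg19 chromosome end (lengths from GenomeInfoDb 1.38.1).

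Overlap, distance, joining within 1000 bp and counts within 50 kb were computed in Python 3.11.15 (scipy 1.17.1, pandas 2.3.3, numpy 2.4.6), and figures were drawn with matplotlib 3.10.9. The interval code was tested on simulated lists and differed from a base by base count in 0 of 1018 regions. The named regions were the 8 widest members, the 5 strongest, the 5 farthest from and the 5 closest to another mark, 3 on either side of the width minimum, and members of the 3 densest windows of 1 Mb, of which the widest are printed. The members and these rules were chosen with earlier results of these data known. No test was run, since each mark had 1 pooled list. The planned GC contents, motifs, gene overlaps and gene lists were not analysed here, for want of a genome and an annotation of hg19.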

Additional observations from a re-analysis of the deposited data

How the results depend on the processing

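Of 40 values, from 5 results under 8 alternative settings, 24 stayed within 1.5 times the count, within the 95% interval of the share, or within 1 SD over chromosomes of the median, and 16 moved more. The number of members was 9299 at a width of at least 1500 bp, 1094 at 3000 bp and 8031 after joining H3K4me1 regions within 1000 bp. Their share of wide regions was then 25.6%, 11.2% and 24.1%, and it was 22.4% when other marks needed a −log10 q-value of at least 5, 17.03% when none lay within 1000 bp, and 20.8% when under 10% of the width was covered. The median signal value was 5.35 at 1500 bp, 6.91 at 3000 bp and 4.97 after joining. The share with H3K27ac within 10 kb was 48.0% after joining, 51.2% with no other mark within 1000 bp and 58.5% with under 10% covered, and the median distance was 10639 bp after joining. Counts that follow the width minimum do so by construction. A stricter or looser overlap rule likewise lowers or raises the number of members and their share of wide regions by construction. Of the 418 members left out for another mark within 1000 bp, 339 had H3K27ac within that distance. Regions let in at under 10% covered that overlap H3K27ac count as within 10 kb. Any other part of the remaining moves was not tested. No paired analysis was possible because each mark had 1 pooled list. Alternatives on GC content, motifs and genes were not run. Depth is unknown, so a weak H3K27ac or H3K4me3 signal under the authors' threshold was not detectable.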

Other observations

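On chromosome Y, outside the set, 7 of 163 H3K4me1 regions were 2000 bp or wider and 0 of those 7 had neither other mark. Of the 18148 wide H3K4me1 regions that did share a base with H3K27ac or H3K4me3, 435 (2.40%, 95% Wilson interval 2.18 to 2.63) had under 10% of their width covered by those marks, and 11063 (61.0%) had at least 50% covered, with a median of 61.3%. Among the 8127 wide H3K4me1 regions with H3K4me3, 7222 (88.9%) also shared a base with H3K27ac.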
